A study of Rattus norvegicus with 30 samples.

Results

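The comparison covers 14 male Fischer 344 rats whose identifiers form 1 run of numbers, called the 1900s series here after those numbers. It sets 11 aged rats (identifiers 1924 to 1936) against 3 young rats (1918, 1919 and 1920), of 30 rats in the whole study. Young rats were 5 to 6 months and aged rats 17 to 22 months old, and 5 of the 11 aged rats had been classified as impaired and 6 as unimpaired on a set shifting task, a test of cognitive flexibility. All rats had been trained on this task, and tissue was taken from the prelimbic and infralimbic medial prefrontal cortex (mPFC). DNA methylation had been measured by whole genome bisulfite sequencing, in which unmethylated cytosines are converted and read as thymine. Each value is therefore a methylation ratio, the share of reads at a cytosine in 1 rat that read as methylated, from 0 to 1. The labels do not say what the runs of identifiers stand for, and the other rats were used only for comparison: 8 aged and 3 young rats of the 2100s series, and 1 aged and 4 young rats of the third series, with longer identifiers.

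A cytosine was a member of the comparison when at least 5 aged rats and all 3 young rats of the 1900s series had a value. This gave 41600 CpG sites of the 85484 deposited for aged against young rats. Outside CpGs, a site also had to have a mean ratio over 0.1 in at least 1 age group, which left 7463 of 266960 CHG sites and 14472 of 707223 CHH sites, where H is any base but G. A median of 10 of the 11 aged rats had a value at a member CpG. Positions are those of the rn5 genome. The deposited ratios carry no read numbers, so the depth behind the ratio of a single rat is not known here beyond the minimum of 5 reads. At that minimum 1 read shifts a ratio by 0.2. As a guide to depth, the number of deposited CpG sites with a value ranged from 46406 to 68148 in the aged and from 60194 to 70063 in the young rats.

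CpG methylation is copied to the new strand after DNA replication and is high over most of a mammalian genome, with low levels at many promoters. Methylation at CHG and CHH sites is rare in most tissues but accumulates in neurons after birth. Genes for ribosomal RNA lie in repeated copies, of which a part is methylated and silent. The DNA came from a piece of tissue with neurons and glia, so a shift in the share of cell types and a change of methylation within cells cannot be told apart, and the labelled tissue could not be checked against marker genes because no expression was measured in these values.

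Mean CpG methylation was slightly lower in aged than in young rats. Over the 20790 member CpGs with a value in all 14 rats, the 3 young rats had means of 0.668, 0.676 and 0.680, and the aged rats lay between 0.665 and 0.673, median 0.670. The groups overlapped, since the lowest young rat lay among the aged rats and 3 of 11 aged rats were below every young rat. Aged rats averaged 0.670 ± 0.00245 (SD, n = 11) and young rats 0.675 ± 0.00601 (SD, n = 3), which is a difference of -0.00556 (exact permutation test, 2-sided, p = 0.0275, adjusted p = 0.0824 over the 3 sequence contexts). The smallest p that 11 against 3 rats can give is 0.00275. Leaving out young replicate 2 or young replicate 3 took the difference to -0.00485 (exact permutation test, p = 0.128) and -0.00298 (exact permutation test, p = 0.218).

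Mean methylation outside CpGs showed no age difference that passed the test. Over 62682 CHG sites aged rats averaged 0.0234 ± 0.000440 (SD, n = 11) and young rats 0.0232 ± 0.000842 (SD, n = 3) (exact permutation test, p = 0.577). At 169917 CHH sites the means were 0.0167 ± 0.000348 and 0.0167 ± 0.000332 (exact permutation test, p = 0.948). Among the aged rats themselves, the impaired rats had slightly higher mean non-CG ratios, in a comparison that was not planned. Their mean CHG ratio was 0.0237 ± 0.000406 (SD, n = 5), and that of unimpaired rats was 0.0231 ± 0.000222 (SD, n = 6), which differed by an exact permutation test (p = 0.00866, adjusted over 3 contexts to 0.0260). The CHH means were 0.0169 ± 0.000327 and 0.0165 ± 0.000205 (exact permutation test, p = 0.0173, adjusted p = 0.0260). At CpGs the impaired and unimpaired means were 0.670 and 0.669 (exact permutation test, p = 0.424). The comparison of impaired with unimpaired means was not repeated without single rats. Bisulfite conversion of each rat is not among these values, so whether it differed between these groups was not tested.

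**Figure D1:**
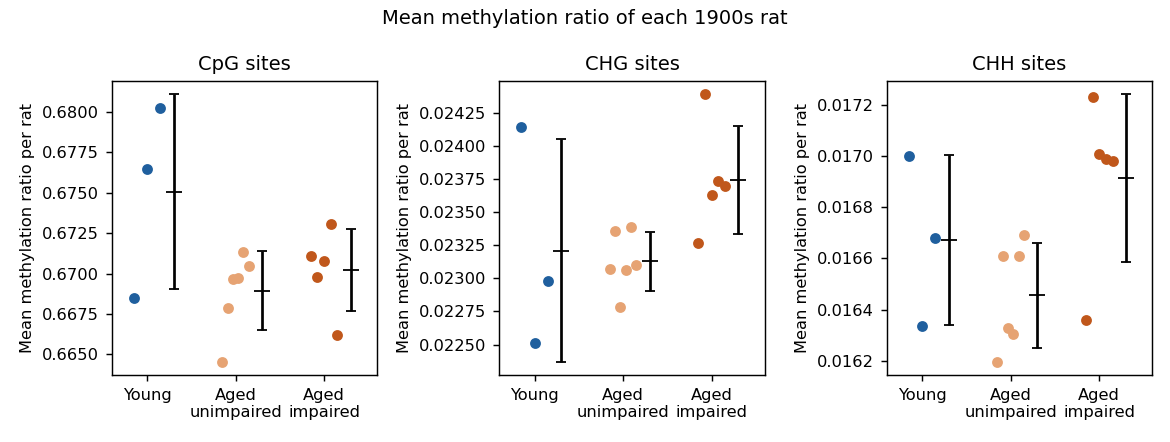
Mean methylation ratio of each 1900s rat at CpG, CHG and CHH sites with a value in all 14 rats, with points for rats and black marks for the group mean and SD. The axes do not start at 0. The young rats span 0.668 to 0.680 at CpGs and overlap the aged rats in every context, while the impaired rats lie mostly above the unimpaired rats at CHG sites.

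The CpG difference was concentrated on 3 chromosomes. On chromosome 14 aged rats averaged 0.624 ± 0.00620 (SD) and young rats 0.655 ± 0.00901 (SD), which is a difference of -0.0311 over 1069 sites. On chromosome 19 the difference was -0.0186 over 1073 sites and on chromosome 1 it was -0.0165 over 4539 sites. On each of these chromosomes all 11 aged rats lay below every young rat, and each gave the smallest p the design allows (exact permutation test, p = 0.00275, adjusted p = 0.0201 over 22 chromosomes, the mitochondrial one included). None of the other 19 chromosomes passed after adjustment. The nearest was the X chromosome, where aged rats were higher by 0.00597 (exact permutation test, p = 0.0357, adjusted p = 0.196). Without chromosomes 1, 14 and 19, an alternative chosen after seeing the data, the mean difference was 0.000874 (exact permutation test, p = 0.684).

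**Figure D2:**
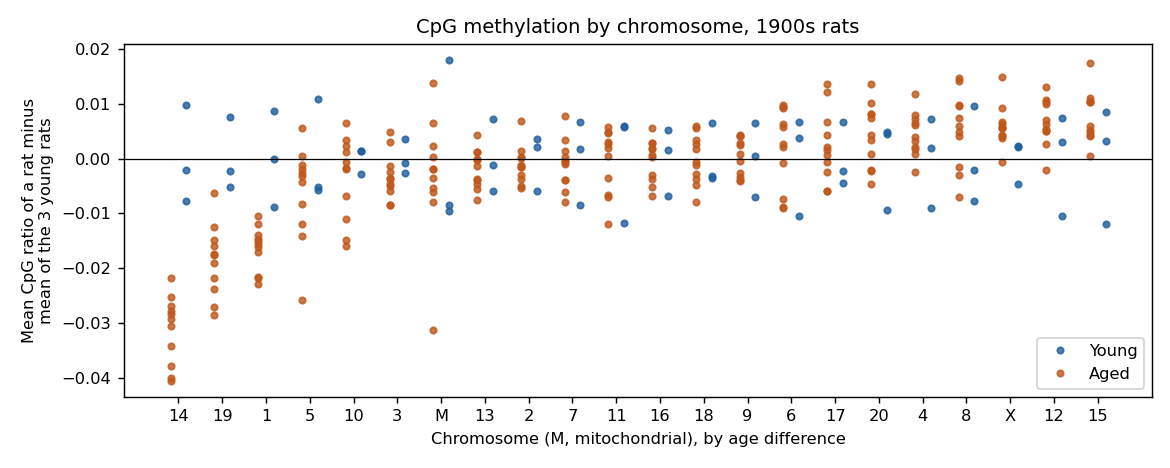
Mean CpG ratio of each 1900s rat on each chromosome, minus the mean of the 3 young rats, over sites with a value in all 14 rats. Chromosomes run from the lowest to the highest age difference. The 11 aged rats lie below every young rat on chromosomes 14, 19 and 1.

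At single CpGs, 3336 of 41378 sites that could be tested (8.06%) passed an unadjusted threshold of 0.05 in a comparison of means with unequal variances, the criterion of the study. Of these, 1208 were higher (2.92%) and 2128 were lower (5.14%) in aged rats, so that 63.8% of the called sites were lower against 51.4% of all tested sites. With 11 against 3 rats this comparison need not hold its nominal level, so the share called is not to be set against the threshold itself. Outside 3 regions of chromosomes 1, 14 and 19, picked after seeing the data, the share was 6.86%. After Benjamini-Hochberg adjustment 170 sites (0.411%) remained, 33 higher and 137 lower. The groups did not overlap at 555 CpGs (1.34%), of which 177 were higher and 378 lower in aged rats. The median size of the difference was 0.142 at called sites and 0.0503 at all tested sites. With 3 young rats the spread of the young values was often 0: at 578 of the called sites (17.3%) the 3 young rats had the same ratio, against 3.70% of all tested sites. An exact permutation test at each site called 2361 of 41600 CpGs (5.68%), 1075 higher and 1286 lower, and 1410 CpGs passed both tests. None passed the exact permutation test after adjustment. Its smallest possible p, 0.00275, can pass adjustment over so many sites only if very many share it, so this cannot decide between the tests. Leaving out 1 rat at a time gave 3154 to 5012 calls, the most without young replicate 1, and 110 to 672 after adjustment.

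Some of the called CpGs lay in runs, most of them runs of sites lower in aged rats. A locus was defined as at least 5 called CpGs in 1 direction with gaps under 1000 bp. There were 31, of which 23 were runs of lower and 8 runs of higher calls, and their bounds held 739 called sites (22.2% of the calls), 672 lower and 67 higher. At 17 loci the bounds also held calls in the other direction, and loci 12 and 14 on chromosome 2, a run of lower and a run of higher calls, overlap. The mean over every CpG within the bounds was lower in aged rats at 20 of the 23 runs of lower calls and higher at 6 of the 8 runs of higher calls. At the other 5, loci 12, 17, 19, 24 and 30, it went against the run by at most 0.0152. The rats of the 1900s series chose these loci, so their levels in these rats are a description and carry no test. In 12 loci, 11 with lower and 1 with higher calls, the aged and young rats did not overlap. Over the common CpGs outside all loci the aged and young means were 0.687 and 0.686. Many of the called sites lay in the 3 regions, on chromosome 1 at loci 1, 3 and 9, on chromosome 14 across loci 4 to 7, 10 and 11, and on chromosome 19 at locus 2. There 593 of the 1378 CpGs tested were called, 587 lower and 6 higher, against 6.86% of the 40000 CpGs elsewhere. They held 107 of the 170 CpGs that passed adjustment.

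Locus 1 (chr1:13503311-13506828) held the most called sites. It overlaps the listed sites of AABR06000596.1, a gene known only by its clone name, whose sites are listed as intronic. Of its 458 tested CpGs, 452 had the lower mean in aged rats and 301 were called, all lower, 61 of them after adjustment. The young rats had locus means of 0.663, 0.703 and 0.704, and the aged rats lay between 0.443 and 0.536, median 0.502. All 11 aged rats were below every young rat. The difference was -0.199, from 0.491 ± 0.0320 (SD, n = 11) to 0.690 ± 0.0237 (SD, n = 3) in young rats. In the 2100s rats, which took no part in choosing the locus, aged rats averaged 0.615 ± 0.0203 (SD, n = 8) and young rats 0.599 ± 0.0164 (SD, n = 3) (exact permutation test, p = 0.261). The only aged rat of the third series had a locus mean of 0.484, below its 4 young rats, which ranged from 0.618 to 0.664.

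Locus 2 (chr19:67047902-67048635) had the widest separation among the 10 leading loci. It spans the listed exon and promoter sites of a 5S_rRNA gene, which encodes the small RNA of the large ribosomal subunit. All 71 tested CpGs were lower in aged rats, 65 were called and 32 passed adjustment. The young rats had locus means of 0.430, 0.448 and 0.466, and the aged rats lay between 0.0385 and 0.0984, median 0.0753. No aged rat came near the young range. Aged rats averaged 0.0695 ± 0.0213 (SD, n = 11) and young rats 0.448 ± 0.0183 (SD, n = 3). At 54 of the 72 member CpGs of the locus the aged mean was under 0.1, against 2 in young rats. In the 2100s rats the age means were 0.423 ± 0.0379 (SD, n = 8) and 0.436 ± 0.00334 (SD, n = 3) for aged and young (exact permutation test, p = 0.600), and all 8 aged rats of that series, from 0.388 to 0.502, lay above every aged rat of the 1900s series. The only aged rat of the third series stood at 0.0516, and its 4 young rats at 0.396 to 0.471.

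**Figure D3:**
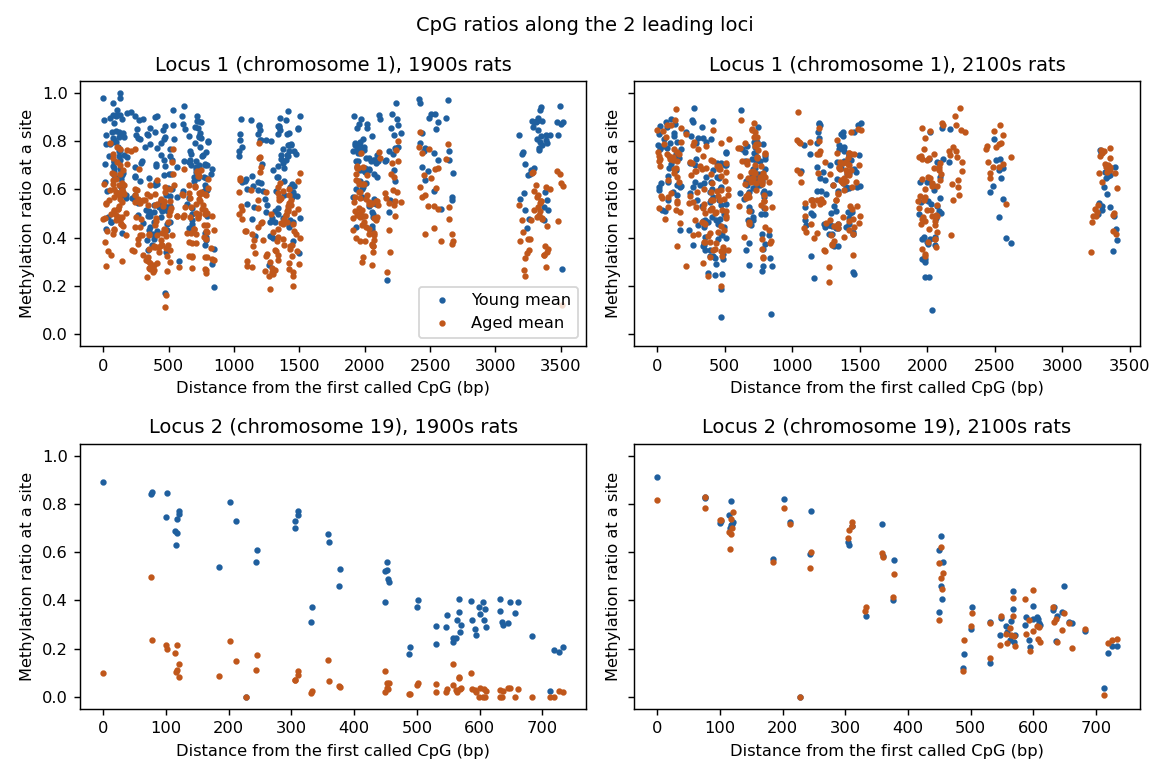
Mean methylation ratio of aged (orange) and young (blue) rats at each CpG along loci 1 and 2, in the 1900s rats and in the 2100s rats, against the distance in bp from the first called CpG. In the 1900s rats 452 of 458 sites of locus 1 and 71 of 72 of locus 2 have the lower mean in aged rats. In the 2100s rats the age groups lie over each other, with median differences of 0.0146 and -0.0177.

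Within locus 2, 5S_rRNA had 8 listed CpGs that met the site rule here, 7 of them called. At the exon site at position 67048450 the 3 young rats had ratios of 0.314, 0.354 and 0.347 and the aged mean was 0.0332 ± 0.0311 (SD, n = 11). At the promoter site at 67048535 the young ratios were 0.336, 0.364 and 0.371 against an aged mean of 0.0275 ± 0.0258 (SD, n = 11). At both sites every aged rat was below every young rat. A further 5S_rRNA exon site, on chromosome 12 at position 1491162, had a ratio of 1 in each young rat and 0.809 ± 0.112 (SD, n = 6) in aged rats, with overlap.

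Locus 3 (chr1:13500282-13501274) lies before locus 1 on the same chromosome, and no listed gene overlaps it. Of 89 tested CpGs 59 were called, all lower in aged rats. The young rats had locus means of 0.571, 0.604 and 0.606, and the aged rats lay between 0.377 and 0.498, median 0.400, without overlap. In the 2100s rats the difference was -0.0222 (exact permutation test, p = 0.618). The third locus near it, locus 9 (chr1:13561008-13561161), had 15 of 51 CpGs called, with young locus means of 0.301, 0.330 and 0.358 and aged locus means from 0.204 to 0.303, so that 10 of 11 aged rats were below every young rat.

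Chromosome 14 held 5 of the 10 leading loci, all lower in aged rats, all without overlap between the age groups. Locus 4 (chr14:46826828-46827639), with 40 of 100 CpGs called lower and 1 called higher, fell within the span of AABR06078903.1, another gene known by its clone name. Its young locus means were 0.297, 0.317 and 0.323, and its aged locus means ranged from 0.216 to 0.284. Locus 7 (chr14:46834411-46834645) lies in the same span and locus 5 (chr14:46821495-46822990) ends just before it. In locus 5, 26 of 109 CpGs were called lower, with a difference of -0.0739, and in locus 7, 21 of 46 with a difference of -0.203. Locus 6 (chr14:46701353-46702856) contains intronic sites of LOC257642, and 22 of its 62 CpGs were called. The young rats stood at 0.545, 0.550 and 0.560 there and the aged rats at 0.376 to 0.532, a gap smaller than the range of the aged rats. Locus 10 (chr14:46742423-46742867) had the highest levels of these, with aged rats at 0.695 ± 0.0448 (SD, n = 11) and young rats at 0.801 ± 0.0270 (SD, n = 3).

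The remaining leading locus, locus 8 on chromosome 5 (chr5:95173512-95173751), had 19 of 64 CpGs called, all lower. Its young locus means were 0.309, 0.343 and 0.388 and its aged locus means ranged from 0.183 to 0.364, so that the groups overlapped and 6 of 11 aged rats were below every young rat. The 1 locus higher in aged rats without overlap was locus 13 (chr1:40819710-40820774). The aged rats stood at 0.868 to 0.977 there with a median of 0.929, and the young rats at 0.586, 0.616 and 0.666. All 15 of its tested CpGs had the higher mean in aged rats, 8 were called and none passed adjustment. It could not be compared in the 2100s rats because 1 of their 3 young rats had values there. The only aged rat of the third series had a mean of 0.800 at this locus, within the range of its 4 young rats, 0.580 to 0.814.

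**Figure D4:**
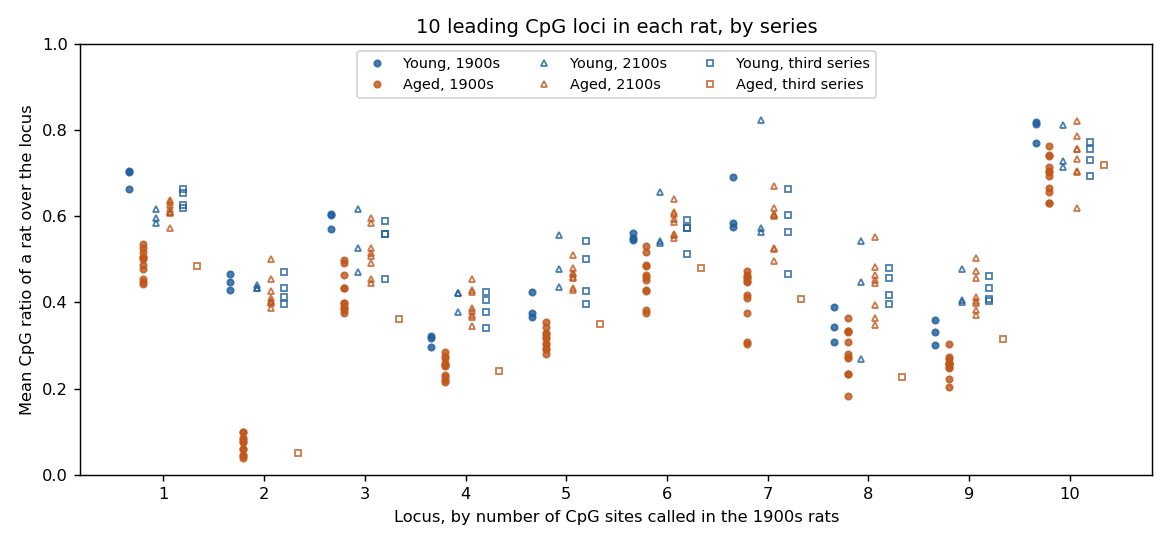
Mean CpG ratio of each rat over the 10 leading loci, numbered by how many sites were called in the 1900s rats, with filled circles for the 1900s series, open triangles for the 2100s series and open squares for the third series (aged orange, young blue). The aged 1900s rats lie below the young 1900s rats at loci 1 to 7 and 10, with locus 2 at 0.0385 to 0.0984 against 0.430 to 0.466. Aged and young 2100s rats overlap at every locus shown.

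The age difference at the loci was tested in the 2100s rats. Of the 31 loci, 29 had enough values in the 2100s rats, and none passed there (exact permutation test, lowest p = 0.127, lowest adjusted p = 0.918, where 8 against 3 rats can reach 0.00606). With only the sites that no rat of either series lacked, locus 7 went from a 2100s difference of -0.0726 (exact permutation test, p = 0.255) to -0.162 (exact permutation test, p = 0.0364), and none of 26 loci passed after adjustment. The sign of the 2100s difference was that of the 1900s difference at 18 of the 29 loci and at 7 of the 10 leading loci. A test of whether the age difference itself differed between the series was run but is not reported, since the 1900s difference that enters it had chosen the loci. Series, run of identifiers and any difference in how or when these rats were handled cannot be told apart. Within the aged 1900s rats, impaired and unimpaired rats differed at 1 of the 31 loci before and at none after adjustment (exact permutation tests). At locus 2, for example, impaired rats had 0.0648 ± 0.0307 (SD, n = 5) and unimpaired rats 0.0735 ± 0.0105 (SD, n = 6) (exact permutation test, p = 0.524).

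The same comparison over single CpGs was made with signs. Of the CpGs called in the 1900s rats, 1066 could be compared in the 2100s rats, and 563 of these (52.8%) had the same sign of the age difference, against 5147 of all 10165 CpGs tested in both series (50.6%). Calls higher in aged rats had the same sign at 50.8% of 325 sites and calls lower in aged rats at 53.7% of 741. Of the 99 CpGs that passed adjustment in the 1900s rats, 47 had the same sign. In the 2100s rats 64 of the 1066 were also called, 39 of them with the same sign, and the background of calls in those rats was 595 of 10165 (5.85%). The same sign was found at 101 of 214 sites (47.2%) in the chromosome 1 region, 62 of 94 (66.0%) in the chromosome 14 region, 39 of 60 (65.0%) in the chromosome 19 region and 361 of 698 (51.7%) outside the 3 regions. Neighbouring sites are not independent, so these shares carry no test.

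The CpGs with the largest differences, 1 for each run of neighbouring sites, were chosen for those differences and are given without a test. Leading those higher in aged rats was position 7321433 of chromosome 9, with a ratio of 0 in each young rat and a median of 1 in 11 aged rats, the lowest aged rat at 0.750. At position 54908355 of chromosome 1 the young rats had 0.220, 0.0938 and 0.227 and the aged rats at least 0.913, and at position 136126716 of chromosome 1 the young rats had 0.609, 0.526 and 0.333 and the aged rats at least 0.857. These 3 sites read differently in the study's other set of calls, for impaired against unimpaired rats. There the impaired rats had a mean of 0 at position 7321433 and 0.0628 at position 54908355, in place of 1 and 0.983, and the unimpaired rats had 0.522 at position 136126716, in place of 0.976. Leading those lower in aged rats was position 11337566 of chromosome 9, with young ratios of 1, 0.714 and 1 and aged ratios from 0 to 0.300 in 10 rats. On chromosome 16, position 21985424 had young ratios of 0.769, 0.833 and 0.846 and aged ratios from 0 to 0.600 in 11 rats. The aged ratios of both were the same in the other set of calls, which has no young rats, so the high ratios here could not be checked. Few 2100s rats had values at the 5 sites. At position 7321433 the only aged 2100s rat with a value had 1 and the 3 young ones had a mean of 0. At position 54908355 the 3 aged ones had a mean of 0.958 and the only young one 0.0833, and at position 136126716 the 4 aged ones had 0.792 and the 3 young ones 0.476. At position 11337566 the 3 aged 2100s rats with a value had a mean of 0.0417 and the only young one had 1, and at position 21985424 the 3 aged ones had 0.407 and the only young one 0.800.

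The study listed 132 CpGs in 104 genes that differed with age and whose methylation also correlated with RNA levels, and 57 of them in 38 genes met the site rule here. The study chose them on all its rats, these 14 included, so neither their calls nor the p values given for them are independent evidence. Of the 57, 30 in 18 genes (52.6%) were called, 6 higher and 24 lower in aged rats, beside 8.06% of all CpGs tested (2.92% higher and 5.14% lower), and 6 passed adjustment over all tested CpGs, all in 5S_rRNA or AABR06000596.1. Over the 57 sites the median difference was -0.118, against -0.00248 over all CpGs tested. Outside 5S_rRNA, AABR06000596.1, LOC257642 and AABR06078903.1 there were 36 listed sites in 34 genes, 15 of them called, 6 higher and 9 lower, and none passed adjustment. Of those 15, 5 also passed the exact permutation test at the site.

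Listed sites called higher included the intronic one of Mgam, a starch-digesting enzyme of the gut (chromosome 4, position 133773929). It had young ratios of 0.50, 0.444 and 0.571 and aged ratios from 0.625 to 0.857 in 8 rats, without overlap (exact permutation test, p = 0.00606). An intronic site of Zcchc7, a zinc finger protein of nuclear RNA surveillance (chromosome 5, 64828520), had a difference of 0.214 with overlap (exact permutation test, p = 0.0909). An intronic site of Ccdc18, a coiled-coil protein (chromosome 14, 2532285), had 0.945 ± 0.0795 (SD, n = 8) in aged rats against 0.800, 0.818 and 0.818 (exact permutation test, p = 0.0242). Of the 9 tested CpGs in the span of Ccdc18, 1 was called higher and 2 lower. The site also lies within locus 24, a run of 5 lower calls. The promoter site of Eif3c, a subunit of a translation initiation factor (chromosome 1, 204961410), had 0 in each young rat and from 0 to 0.250 in 9 aged rats (exact permutation test, p = 0.286). LOC100364581 and Xirp2, which encodes an actin-binding protein of muscle, completed the genes with a listed site called higher. In the span of LOC100364581, 6 of 129 CpGs were called higher and 5 lower.

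Listed sites called lower included an intronic one of Tctn1, a protein of the transition zone of cilia (chromosome 12, 41683448). It had a ratio of 1 in each young rat and 0.844 ± 0.0855 (SD, n = 8) in aged rats (exact permutation test, p = 0.0424). An intronic site of RGD1305645 (chromosome 9, 50199264) had young ratios of 1, 0.833 and 1 and aged ratios from 0.50 to 0.875 (exact permutation test, p = 0.0121). Of the 6 tested CpGs in the span of RGD1305645, 1 was called higher and 1 lower. The exon site of AABR06058265.1 (chromosome 9, 7647305) had a ratio of 1 in each young rat and from 0.50 to 0.833 in 5 aged rats, without overlap (exact permutation test, p = 0.0357). Its ratios in the calls for impaired against unimpaired rats were either missing or not the same as here. The remaining lower calls were in Chmp4c, a subunit of the membrane-cutting ESCRT machinery, Scfd2, Itgbl1, Zfp167, LOC100360856 and AABR06054289.1, and in each of these 6 the aged and young rats overlapped. The span of LOC100360856 held 2 higher and 8 lower calls among 183 CpGs, and that of AABR06054289.1 held 1 of each among 6.

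Synaptic and signalling genes were covered thinly. Lists drawn from the study's functional clusters for the postsynaptic density, GTPase activity, synapse and ion channels named 80 genes, of which 13 had a member CpG within the span of their listed sites. Of their 152 tested CpGs 9 were called (5.92%), 6 higher and 3 lower, none after adjustment, and the median of the gene medians was 0.00585. The share lies below the 8.06% over all CpGs and near the 6.86% outside the 3 regions, so it is no result about these genes. Most of these sites were in Tbc1d5, which activates GTP hydrolysis on the endosomal GTPase Rab7, with 4 higher and 1 lower of 104 CpGs. Its site at position 1394107 of chromosome 9 had young ratios of 0.654, 0.650 and 0.571 and an aged mean of 0.795 ± 0.0614 (SD, n = 11), without overlap. This site was picked from the 104 for its difference, so it is given without a test. Over all tested CpGs, 1.34% had no overlap.

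The other calls among the listed synaptic genes were single sites with overlap between the age groups. Ank3, the scaffold of the axon initial segment, had 0.922 ± 0.110 (SD, n = 11) at position 22589896 of chromosome 20 against young ratios of 0.846, 0.833 and 0.750 (exact permutation test, p = 0.115). Cacnb4, a subunit of voltage-gated calcium channels, had 1 site with a difference of 0.117 and a neighbouring one with -0.110. Nlgn1, a cell adhesion protein of excitatory synapses, had 0.975 ± 0.0353 (SD, n = 11) at position 130811331 of chromosome 2 against a ratio of 1 in each young rat (exact permutation test, p = 0.505). Its other CpG, at position 130820153, was not called and went the other way, with 0.696 ± 0.153 (SD, n = 8) against young ratios of 0.300, 0.750 and 0 (exact permutation test, p = 0.0545). Sites of the listed genes that were not called included Sbf2, a regulator of Rab GTPases, at position 182276873 of chromosome 1, with 0.849 ± 0.0992 (SD, n = 11) against young ratios of 0.778, 0.625 and 0.714 (exact permutation test, p = 0.0412). Tbc1d15 at position 58219846 of chromosome 7 had 0.286 ± 0.186 (SD, n = 5) against 0.450 ± 0.119 (SD, n = 3) (exact permutation test, p = 0.232). The CpGs of Exoc4, of the exocyst complex, and Dock9, an activator of the GTPase Cdc42, were not called either.

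Outside CpGs, 757 of 7432 tested CHG sites (10.2%) were called, 388 higher (5.22%) and 369 lower (4.97%), with 125 (1.68%) after adjustment. At 213 CHG sites (2.87%) the groups did not overlap. At CHH sites 1404 of 14406 (9.75%) were called, 745 higher (5.17%) and 659 lower (4.57%), with 267 (1.85%) after adjustment and 422 (2.93%) without overlap. Without young replicate 1, 2 or 3 the CHG calls rose to 1285, 1304 and 1214 and the CHH calls to 2391, 2321 and 2240. After adjustment there were then 382, 347 and 289 CHG and 667, 616 and 578 CHH sites, and the range over leaving out any 1 rat was 107 to 382 and 238 to 667. The exact permutation test at each site called 751 CHG and 1406 CHH sites, none after adjustment, where the limit given for CpGs holds too. The split by direction depended on the test and the filter. With limma on the ratios, 772 of 1003 CHG calls and 1410 of 1872 CHH calls were lower in aged rats, and without the filter on the mean ratio 3718 of 4458 CHG calls and 6555 of 7962 CHH calls were higher. As at CpGs, identical young ratios were more frequent among called sites. The 3 young rats were identical at 28.7% of called CHG and 28.3% of called CHH sites, against 4.02% and 3.87% of the sites tested. What this adds to the number of calls was not tested. The filter on the mean ratio keeps sites that are high in only 1 group, so the share called is not that of all non-CG sites.

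A small set of non-CG sites went from one end of the scale to the other. The difference was over 0.5 at 148 CHG sites, 86 higher and 62 lower in aged rats, and at 316 CHH sites, 195 higher and 121 lower. At the higher CHG sites aged rats averaged 0.944 and young rats 0.0243, and at the lower CHG sites 0.0293 and 0.931. At CHH sites the corresponding means were 0.939 and 0.0189, and 0.0187 and 0.947. At position 56440299 of chromosome 1, for example, a CHH site, the young rats each had 0 and the aged rats had at least 0.952. At position 5181 of the mitochondrial genome, a CHG site, the young rats each had 1 and the aged rats at most 0.0080. With the CpGs that differed by over 0.5, these sites numbered 497 in 366 runs with gaps under 1000 bp, and 80 of the runs held more than 1 site. At positions 54908355 to 54908359 of chromosome 1, CpG, CHG and CHH sites were all higher in aged rats. Chromosome 1 held 21 of the 86 higher CHG sites (24.4%), and 17.2% of all member CHG sites.

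These large non-CG differences depended on which set of calls the ratio was read from. The study also deposited calls for impaired against unimpaired rats, and the same 11 aged rats are in both sets. Of the 86 CHG sites higher in aged rats by over 0.5, 82 are in that other set, and at 81 of them the ratio of at least 1 aged rat moved by over 0.5. The mean over these 82 sites was 0.941 in the calls against young rats and 0.437 in the other set. At the 81 sites the impaired rats alone were under 0.5 in the other set at 44, the unimpaired rats alone at 19, and both at 18. CHH sites did the same, with 173 of 179 moved and means of 0.941 and 0.355. The sites lower in aged rats could not be checked in this way, because their high ratios are those of the young rats, which are not in the other set. The aged ratios at 52 CHG and 102 CHH of these sites are in both sets, near 0 in each. Ratios of the aged rats at CpGs moved less often: 6 of 8 CpGs higher by over 0.5 moved, among them position 7321433 of chromosome 9, where the impaired rats had a mean of 1 in the calls against young rats and 0 in the other set, but only 8 of all 40047 member CpGs in both sets moved that far. Every member CpG of the 10 leading loci that is in both sets had the same aged ratios in both, and the young ratios could not be compared.

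**Figure D5:**
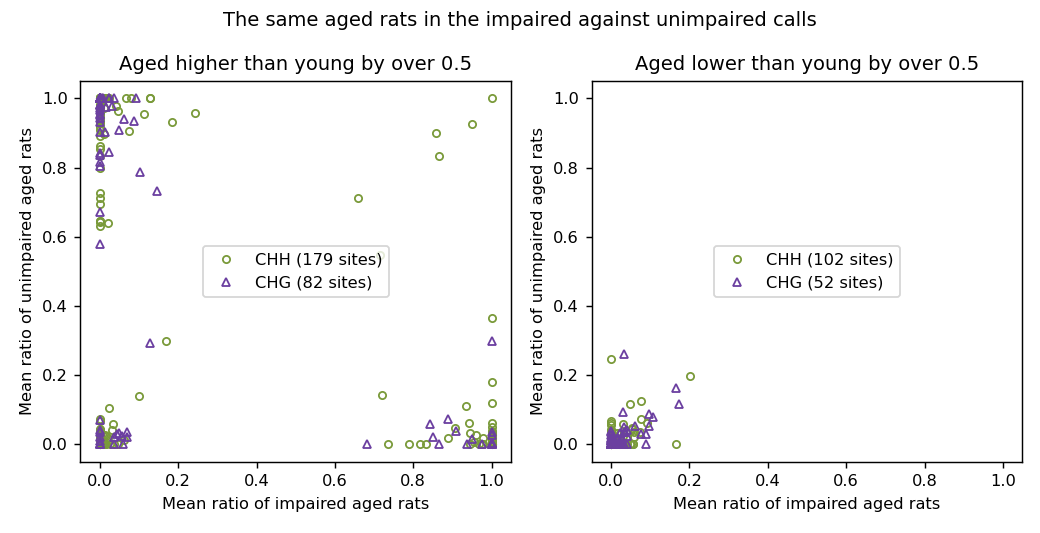
Mean ratio of the 1900s impaired against the 1900s unimpaired rats in the impaired against unimpaired calls, at CHG and CHH sites where the aged rats differed from the young by over 0.5 in the other calls. At the sites higher in aged rats (left, 82 CHG and 179 CHH) the points fall mostly in 3 corners although all these rats averaged 0.941 in the calls against young rats. At the sites lower in aged rats (right, 52 and 102) both groups are near 0, as in the calls against young rats, and the young rats that are high there have no values in this set.

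The comparison was also limited to sites whose aged ratios were the same in both sets. This can remove a site only for its aged ratios, so it mostly takes out sites where the aged rats are high and says nothing of high young ratios, and the direction of the sites that stay is in part set by it. Then 637 of 6706 CHG sites were called, 300 higher and 337 lower, and 45 passed adjustment in place of 125. At CHH sites 1136 of 12886 were called, 542 higher and 594 lower, and 85 passed in place of 267. Called differences over 0.5 numbered 47 at CHG and 92 at CHH sites, of which 1 and 5 were higher in aged rats. At CpGs 3229 of 39362 were called, and 172 passed adjustment. In the rats outside the 1900s series, every non-CG site with a difference over 0.5 and values in both ages had the same sign, 108 of 108 CHG and 218 of 218 CHH sites. Over all member sites with such values it was the same at 2805 of 6116 CHG and 5597 of 11824 CHH sites. Those values come from the same set of calls that chose the sites, so they are no independent check of the large differences.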

How the data were processed

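Whole genome bisulfite sequencing of mPFC DNA was compared between 11 aged and 3 young rats of the 1900s series. The authors trimmed reads, discarded those with unconverted bases, aligned to rn5 with BSMAP and called methylation, separately for aged against young and for impaired against unimpaired rats. The submitters' processing notes name Trimmomatic, BSMAP and FastQC, and versions are not given in the sources used here. The deposited values are fractions (methylation ratios from 0 to 1) per rat and cytosine, with none under 5 reads. Group depths that the study gives for its listed sites were not used. Columns of the authors' group means and SDs were not used. Removing unconverted reads can lower non-CG ratios.

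Site by site, ratios were compared by a 2-sided Welch's test and, for means per rat and single named sites, with exact permutation tests. Loci were tested in the 2100s rats and between impaired and unimpaired rats. A planned test between series was also run and is not reported, because the 1900s difference that enters it chose the loci. Alternatives were limma on the ratios or on logits (offset 0.05), the exact test at each site, other filters, 1 site per run and leaving out each rat. The named sites are the 10 higher and 10 lower CpGs (5 and 5 for CHG and CHH) with the largest called differences without overlap, 1 per 1000 bp run, of which the clearest are described, the listed CpGs, the first 10 loci, and up to 10 genes of the functional lists. Gene names are those of the study's listed sites, and a gene's span runs between its listed sites, because no rn5 annotation was used. Members and lists were chosen with earlier results of these data known. The labels do not number replicates, so replicates are named in accession order. The rats are separate animals. The site comparison was tested on simulated data. Python 3.11.15, numpy 2.4.6, pandas 2.3.3, scipy 1.17.1, matplotlib 3.10.9, R 4.3.3 and limma 3.58.1 were used.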

Additional observations from a re-analysis of the deposited data

Results flagged for a closer look

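In 36 groups of 5 to 8 rats checked for a rat apart from its group, 3 rats stood out by Dixon's criterion, where chance gives about 1 in 20 groups. Aged replicate 1 had a mean CHH ratio of 0.0164, and the other impaired rats had 0.0170 to 0.0172. Aged replicate 3 had a mean of 0.302 at locus 7 on chromosome 14, and the other unimpaired rats had 0.410 to 0.472. In the 2100s series 1 aged rat had 0.573 at locus 1, and the others had 0.608 to 0.639.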

How the results depend on the processing

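No paired analysis was possible because the labels give no replicate numbers and aged and young rats are different animals. The files give no depth per ratio, so no interval was set on a single rat's value. Counts of calls stayed within 1.5 times 3336 CpG, 757 CHG and 1404 CHH sites with limma on the ratios or logits, with the exact permutation test, with at least 8 aged values and over sites with the same aged ratios in both sets of calls; at CpGs also with ratios from 0.1 to 0.9 and with both cytosines of a CpG averaged. The sites and directions could still change: 576 of the CHG and 1060 of the CHH calls of the exact permutation test were lower in aged rats. With limma on logits 732 of 1030 CHG and 1313 of 1900 CHH calls were lower. The counts moved further, to 1410, 380 and 691, for calls that also passed the exact permutation test (chosen after seeing the data), to 1869, 278 and 552 with a value in all 11 aged rats, and to 611, 398 and 480 with 1 site per run, settings that test fewer sites or add a condition. With 1 site per run 1 CpG passed adjustment. Without chromosomes 1, 14 and 19 there were 2002 CpG calls, 13 after adjustment, and the mean CpG difference turned to 0.000874. Without the ratio filter 4458 CHG and 7962 CHH sites were called, 3718 and 6555 of them higher in aged rats, and with a filter at 0.2, 283 and 638. The mean CHH difference was 0.000148 over every site and 3.51e-05 on autosomes. Leaving out 1 rat gave 3154 to 5012 CpG, 728 to 1304 CHG and 1337 to 2391 CHH calls, and mean differences from -0.00885 to -0.00298 at CpGs, from -0.000152 to 0.000665 at CHG and from -0.000177 to 0.000156 at CHH sites. The share of CpG calls with the same sign in the 2100s rats ranged from 50.8% to 55.0%. With only sites valued in every rat of both series, 1 of 26 loci (locus 7) passed in the 2100s rats before adjustment and none after it. Among the named sites, 24 of 479 fits without 1 rat lost the call. Fits left without spread in either group could not be tested and were not counted as lost. The sign could not change, because these sites were chosen for having no overlap between the age groups.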
